A study of Mus musculus with 6 samples.

Results

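The p53 pathway, the cyclin-dependent kinase (CDK) inhibitors, the Gadd45 stress genes and lamin B1 were followed in mouse chondrocytes, the cells of cartilage, after mitochondrial transplantation. The set holds 9 genes, Trp53, Mdm2, Cdkn1a, Ccng1, Cdkn2a, Cdkn2b, Gadd45a, Gadd45b and Lmnb1, picked by gene name from the 28812 rows of the deposited expression table. Each name matched 1 row. All 9 passed the filter on low counts, which 17290 genes passed.

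Poly(A) RNA was sequenced from 3 libraries of wild-type chondrocytes given IL-1β and mitochondria and from 3 libraries of wild-type chondrocytes given IL-1β and vehicle. IL-1β is an inflammatory cytokine used to bring cultured chondrocytes into an osteoarthritis-like state, and the labels give the disease state of every library as OA. The title of the series names osteocytes, the cells embedded in bone, as the source of the mitochondria, and the strain, age and dose are not given in the sources used here. No library without IL-1β was analysed, so the levels below have no uninflamed baseline, and the labels do not say whether the 3 libraries of a group came from separate animals or cultures, so p-values measure only the spread between these libraries.

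p53, the product of Trp53, is a transcription factor that is kept scarce by the ubiquitin ligase Mdm2 and accumulates after DNA damage and other stress. It then switches on genes that stop the cell cycle, repair DNA or start cell death, and it also switches on Mdm2, which closes a feedback loop. Cells that stop dividing for good, called senescent, typically carry more of the CDK inhibitors p21 (from Cdkn1a) and p16 (from Cdkn2a) and less lamin B1, and such cells have been described in osteoarthritic cartilage.

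With mitochondria, 2 of the 9 genes fell and none rose in edgeR's quasi-likelihood test at an adjusted p under 0.05. Ccng1, encoding cyclin G1, had 0.48 times its vehicle level, and Lmnb1, encoding the nuclear lamina protein lamin B1, 0.59 times. Of all genes tested, 14.8% passed in either direction, 8.46% as lower and 6.36% as higher, so the 2 calls lie near what the whole table gave. At an unadjusted p under 0.05, 3 of the 9 were higher (Cdkn1a, Cdkn2a and Gadd45b) and 2 lower, where 31.5% of all genes tested lay under it. DESeq2 called 1 higher, Gadd45b, and the same 2 lower, and limma-voom called none higher and 2 lower. In scaled counts (CPM), 7 of the 9 genes had all mitochondria libraries on 1 side of the vehicle libraries, 5 above and 2 below. In CPM that was so for 40.7% of all genes tested, 19.8% above and 20.9% below. In the deposited FPKM the groups overlapped for Cdkn1a and Cdkn2b, which lay above in CPM.

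The libraries held 63547854 to 66293786 deposited counts, and levels are given as CPM, which scales these counts for library size. On the low end of the table values piled up at 4 and 8, and 1 sequenced fragment is read here as about 4 deposited counts. Mitochondria replicate 1 stood apart on the second principal component of log2 CPM (17.6% of the variance; 50.99, against -47.17 to 20 for the other libraries). It was also the extreme on the first component (43% of the variance), which separates the groups. There it lay at -81.44, against -27.36 and -34.7 for the other mitochondria libraries and 30.39 to 56.75 for the vehicle libraries. Fold changes followed the base composition of the transcripts: the 4319 tested genes with the lowest GC content (28.3% to 46.0%) had a median log2 fold change of -0.37, with 18.8% of them called lower and 1.67% called higher, and the 4319 with the highest GC content (54.9% to 84.2%) a median of 0.18, with 2.41% lower and 11.0% higher. Of 9 chondrocyte markers 2 rose and 2 fell, and their summed level was 1506 to 1712 CPM with mitochondria and 1852 to 2231 CPM with vehicle. Most of the sum was Col2a1, whose groups overlapped (912 to 1156 CPM with mitochondria and 1054 to 1219 CPM with vehicle). Lower in every mitochondria library were Col11a1 (256 to 369 CPM, against 520 to 703 with vehicle) and Hapln1 (22.2 to 31.5 against 44.9 to 62.6). Higher in every one were Sox9 (64.2 to 69.0 CPM, against 38.8 to 54.4 with vehicle) and Acan (19.2 to 24.4 against 12.8 to 16.6). The 4 osteocyte markers in the table summed to 0.357 to 1.29 CPM with mitochondria and 0.282 to 0.855 CPM with vehicle; Sost and Dmp1 were at 0 in every mitochondria library, whereas Fgf23 had 0.295 to 1.07 CPM with mitochondria and 0.119 to 0.36 CPM with vehicle, and Phex 0.0621 to 0.221 CPM with mitochondria and 0 to 0.495 CPM with vehicle. The 5 synovial fibroblast markers summed to 701 to 715 CPM with mitochondria and 674 to 812 CPM with vehicle, and 2 of them fell. For 13 macrophage markers the sum was 75.0 to 89.6 CPM with mitochondria and 73.2 to 92.4 CPM with vehicle. For 5 endothelial markers it was 2.26 to 4.64 CPM with mitochondria and 2.32 to 3.2 CPM with vehicle. No macrophage or endothelial marker passed. The part of these markers in the results below was not tested. Where a transcript was lower, fewer cells of a kind and less RNA per cell cannot be told apart in these bulk samples.

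**Figure D1:**
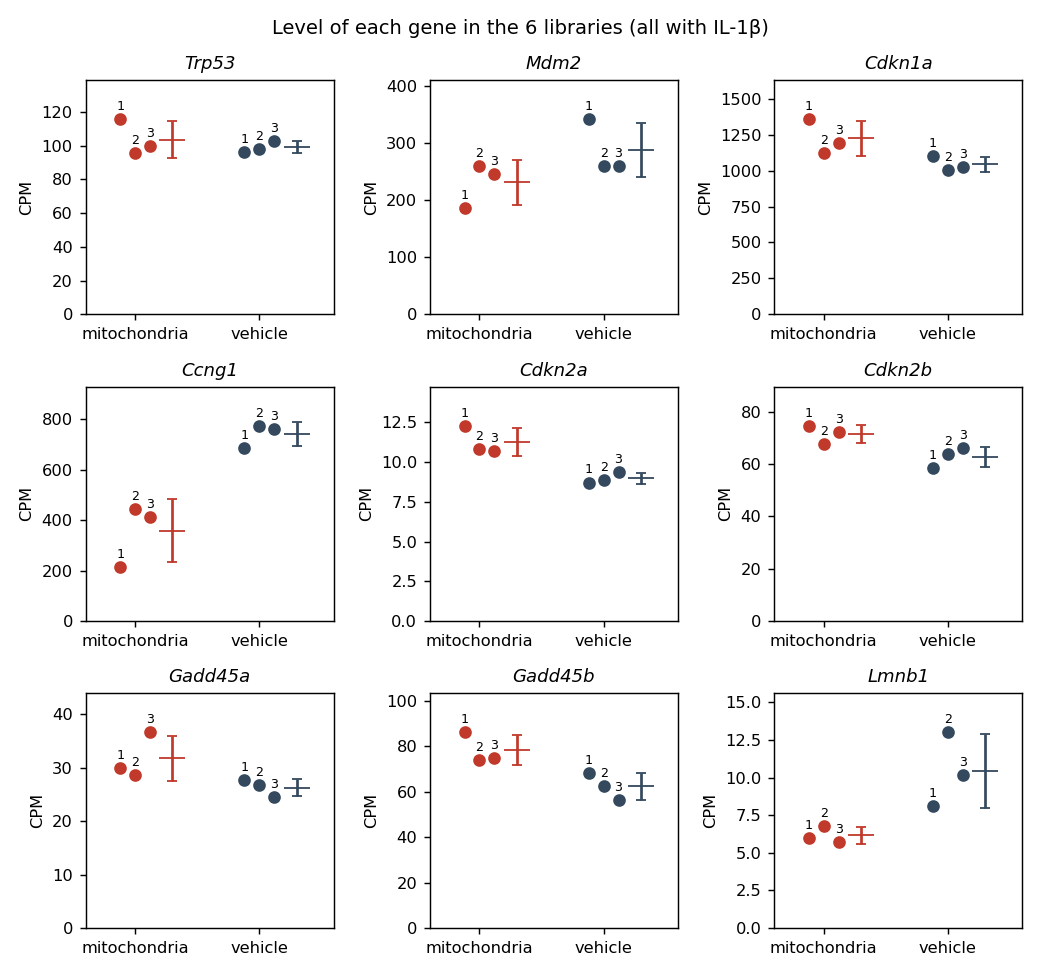
Level of each of the 9 genes in CPM (linear axes from 0) in the 3 mitochondria libraries (left) and the 3 vehicle libraries (right), with the replicate number over each point and the mean with its SD beside the points. Ccng1 and Lmnb1 lie lower in every mitochondria library, Cdkn1a, Cdkn2a, Cdkn2b, Gadd45a and Gadd45b slightly higher in every one, and the groups overlap for Trp53 and Mdm2.

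Trp53 itself (ENSMUSG00000059552, chromosome 11, 69580359 to 69591873, GRCm38) was measured at close levels in both groups. It had 116, 95.6 and 99.6 CPM with mitochondria, against 96.4, 98.1 and 103 CPM with vehicle. The ranges overlap, with mitochondria replicate 1 the highest of the 6. The log2 fold change was 0.06 ± 0.10 (SE; 95% interval -0.17 to 0.29; adjusted p = 0.72, edgeR), so a change beyond 0.89 to 1.22 times the vehicle level lay outside the interval. The sign of this small estimate was negative under several scalings, among them library size only (-0.0036) and GC offsets (-0.01), a correction for base composition.

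Mdm2 (ENSMUSG00000020184, chromosome 10, 117688875 to 117710758), the ligase that marks p53 for destruction and is itself a p53 target, had 186, 261 and 247 CPM with mitochondria, against 343, 261 and 260 CPM with vehicle. One library of each group sets most of this gap: mitochondria replicate 1 was the lowest and vehicle replicate 1 the highest, and the other 4 lay between 247 and 261. The log2 fold change was -0.32 ± 0.15 (SE; 95% interval -0.67 to 0.03; adjusted p = 0.20, edgeR), -0.18 without mitochondria replicate 1 and -0.18 without vehicle replicate 1. Its relative Mdm4, which binds p53 and blocks its activity, averaged 31.0 ± 9.74 CPM with mitochondria and 43.8 ± 2.95 CPM with vehicle (SD, n = 3 each) and did not pass either (log2 -0.50, adjusted p = 0.15, edgeR); without mitochondria replicate 1 the estimate was -0.27, and with GC offsets -0.13.

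Cdkn1a and Ccng1 are long-known p53 targets, and both have a p53 response element in a RefSeq promoter window. Each window runs from 250 bases before to 50 bases after a transcription start (GRCm38.p6). Cdkn1a also has a window at a downstream start, which holds no such element. The element searched was the known p53 response element of 20 bases, 2 adjoining copies of the p53 decamer, with its 4 core C and G positions fixed and up to 3 mismatches elsewhere. Its consensus reads the same on both strands, so 1 strand was searched. At most 1 mismatch was found in 22 of 32851 promoter windows (0.067%), the upstream Cdkn1a window and the Ccng1 window among them. These windows are shown because the 2 genes share the element and their estimates have opposite signs; capitals mark the element.
Cdkn1a, upstream start, chr17:29090729-29091028, plus strand: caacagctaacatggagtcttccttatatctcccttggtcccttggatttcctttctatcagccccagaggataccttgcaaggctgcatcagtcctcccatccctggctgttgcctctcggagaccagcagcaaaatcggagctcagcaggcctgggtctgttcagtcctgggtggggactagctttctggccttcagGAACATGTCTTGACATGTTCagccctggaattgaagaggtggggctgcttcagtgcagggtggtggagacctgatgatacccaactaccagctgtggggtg
Ccng1, chr11:40755237-40755536, minus strand: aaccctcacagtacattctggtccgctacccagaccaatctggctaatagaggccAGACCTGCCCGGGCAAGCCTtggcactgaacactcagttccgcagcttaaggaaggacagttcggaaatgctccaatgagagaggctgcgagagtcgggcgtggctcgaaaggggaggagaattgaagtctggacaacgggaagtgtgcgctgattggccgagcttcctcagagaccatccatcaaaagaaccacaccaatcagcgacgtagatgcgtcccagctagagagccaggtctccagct
The element ends 32 bases before the upstream Cdkn1a start and 176 bases before the Ccng1 start. Up to 3 mismatches were allowed in a wider search, which 1.38% of all windows met. The Trp53 window met it, and the windows of Mdm2, Cdkn2a, Cdkn2b, Gadd45a and Gadd45b and the downstream Cdkn1a window did not. Lmnb1 was left out of this lookup, so nothing is said of its promoter. In this window of Mdm2 no match says only that these letters are missing there. A match describes the sequence and was not measured as binding.

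Cdkn1a (ENSMUSG00000023067, chromosome 17, 29090976 to 29100727), which encodes the CDK inhibitor p21, had 1361, 1123 and 1191 CPM with mitochondria, against 1099, 1003 and 1028 CPM with vehicle. In CPM every mitochondria library lay above every vehicle library, by a small margin at its closest (1123 against 1099 CPM). In the authors' FPKM the groups overlapped, with 279 to 339 FPKM with mitochondria and 265 to 284 FPKM with vehicle. The log2 fold change of 0.23 ± 0.09 (SE; 95% interval 0.02 to 0.44) did not pass over all genes (adjusted p = 0.12, edgeR), nor under any alternative tried. Without mitochondria replicate 1, the highest library, it was 0.15, and with GC and length offsets 0.13. GENCODE M21 places an antisense transcript, AC167363.2, at 29093416 to 29094461 within the gene. Since the counting is not stated to use strand, reads of that stretch cannot be told apart.

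Ccng1 (ENSMUSG00000020326, chromosome 11, 40748552 to 40755311) encodes cyclin G1, which recruits protein phosphatase 2A to Mdm2 and takes part in the feedback on p53. It had 214, 445 and 413 CPM with mitochondria, against 686, 774 and 762 CPM with vehicle. The groups were far apart, and mitochondria replicate 1 was the lowest of all. It fell by 1.05 ± 0.23 on the log2 scale (SE; 95% interval -1.58 to -0.52; adjusted p = 0.022, edgeR). Without mitochondria replicate 1 the estimate was -0.79 and still passed (adjusted p = 0.0019, edgeR). The call was lost without vehicle replicate 2 (adjusted p = 0.084), vehicle replicate 3 (0.085) or mitochondria replicate 3 (0.050), where the estimates were -1.02, -1.03 and -1.17 (edgeR).

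The Ccng1 transcript is AT-rich (40.8% GC), the lowest GC content of the 9 genes. With GC offsets, correction terms that remove each library's trend of counts on GC content before the test, its log2 fold change was -0.45 and passed (adjusted p = 0.011, edgeR), so the size of the fall depends on that step by more than 1.5 times. With offsets for GC content and transcript length it was -0.34 (adjusted p = 0.020, edgeR), and with GC offsets and without mitochondria replicate 1 it was -0.35 (adjusted p = 0.011). The direction was negative under every alternative tried, between -1.24 and -0.34. Its relative Ccng2, a cyclin G that is also tied to growth arrest, averaged 132 ± 4.11 CPM with mitochondria and 121 ± 13.4 CPM with vehicle (SD, n = 3 each) and did not pass (log2 0.12, adjusted p = 0.47, edgeR).

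**Figure D2:**
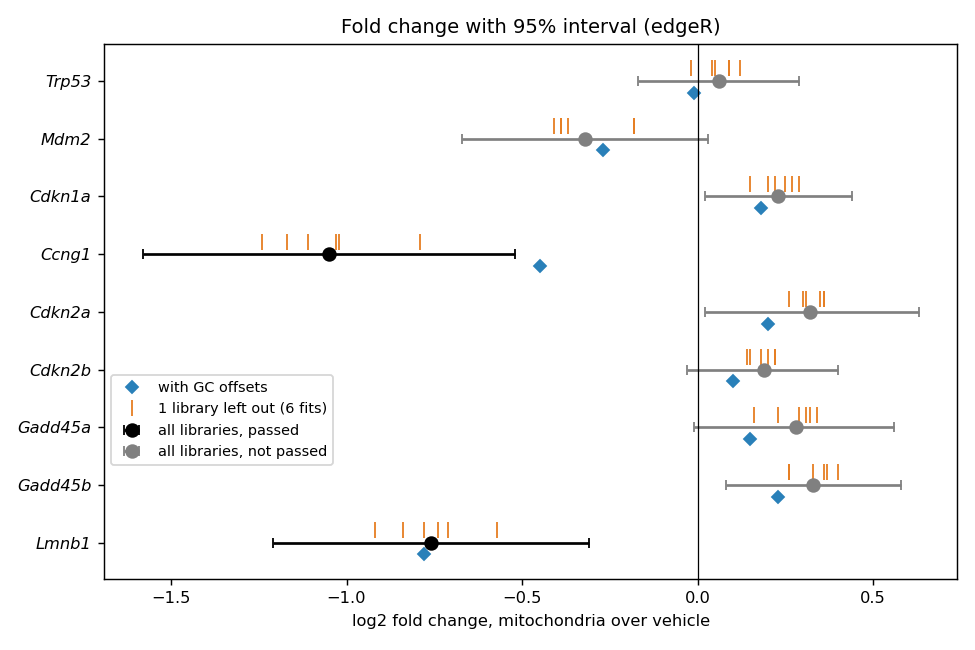
Log2 fold change of each gene, mitochondria over vehicle, from edgeR: circles with 95% intervals are the estimates with all 6 libraries (black where the adjusted p was under 0.05, grey otherwise), diamonds the estimates with GC offsets, and ticks the 6 fits with 1 library left out. Ccng1 (-1.05) and Lmnb1 (-0.76) are the black circles, and the GC offsets move Ccng1 to -0.45 and leave Lmnb1 at -0.78.

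**Figure D3:**
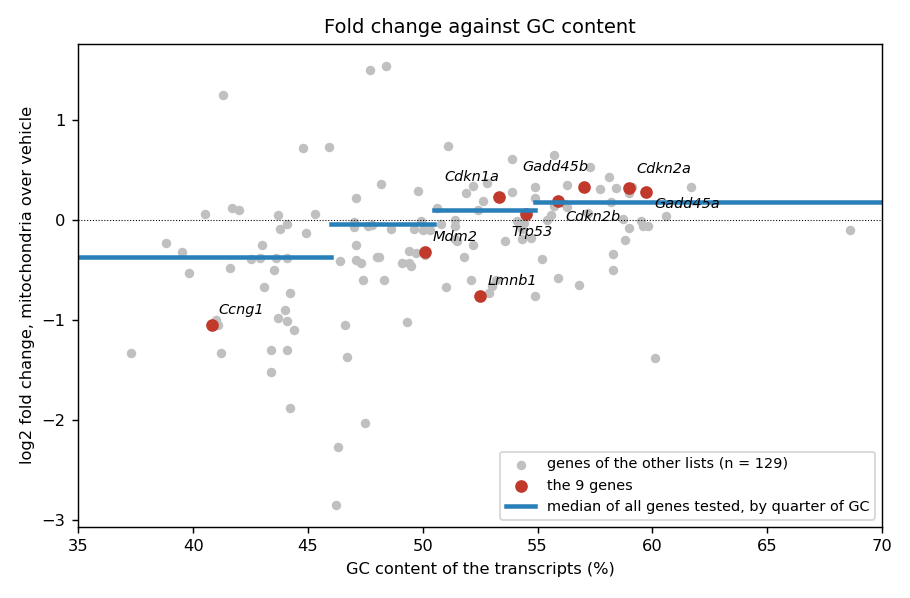
Log2 fold change, mitochondria over vehicle, against the mean GC content of a gene's transcripts, drawn from 35% to 70%, for the 9 genes (red) and the other listed genes (grey), with the median of all genes tested in 4 equal bins of GC content (blue lines). Ccng1 lies at 40.8% GC, in the bin whose median is -0.37, whereas Lmnb1 at 52.5% GC lies far below the median of 0.10 in its bin.

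The INK4 inhibitors bind CDK4 and CDK6 and keep the retinoblastoma protein active. Cdkn2a (ENSMUSG00000044303, chromosome 4, 89274471 to 89294653) encodes p16 and, from another first exon, the Mdm2 inhibitor p19Arf. The table gives 1 value for the gene over 2 transcripts, so these 2 products are not separated. Cdkn2a had 12.3, 10.8 and 10.7 CPM with mitochondria, against 8.72, 8.85 and 9.39 CPM with vehicle, and the ranges did not overlap. The log2 fold change was 0.32 ± 0.14 (SE; 95% interval 0.02 to 0.63; adjusted p = 0.14, edgeR), and the estimate was 0.20 with GC offsets and 0.09 with GC and length offsets. The depth behind it was about 167 to 198 fragments per library with mitochondria and 142 to 156 with vehicle.

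Cdkn2b (ENSMUSG00000073802, chromosome 4, 89306299 to 89311039), the neighbouring gene 11645 bases away, encodes the related inhibitor p15, a known target of TGF-beta signalling. It had 74.7, 67.7 and 72.2 CPM with mitochondria, against 58.6, 63.9 and 66 CPM with vehicle. In CPM the values of the mitochondria libraries again lay just above those of the vehicle libraries. In FPKM the groups overlapped, with 43.0 to 47.6 FPKM with mitochondria and 38.7 to 44.4 FPKM with vehicle. The log2 fold change was 0.19 ± 0.09 (SE; 95% interval -0.03 to 0.40; adjusted p = 0.21, edgeR), 0.10 with GC offsets and 0.05 with GC and length offsets. Per length Cdkn2b was several-fold more abundant than Cdkn2a, with an FPKM ratio of 5.38 ± 0.288 with mitochondria and 5.91 ± 0.217 with vehicle (SD, n = 3 each; exact two-sided permutation p = 0.20).

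The Gadd45 genes encode small stress proteins that bind p21 and PCNA and, through the kinase Map3k4, feed p38 and JNK signalling; Gadd45a is a p53 target, and Gadd45b is known as a target of NF-kB and TGF-beta. Gadd45a (ENSMUSG00000036390, chromosome 6, 67035096 to 67037406) had 30.0, 28.7 and 36.6 CPM with mitochondria, against 27.6, 26.7 and 24.5 CPM with vehicle. Mitochondria replicate 3 was the highest, and without it the log2 fold change was 0.16 instead of 0.28 ± 0.13 (SE; 95% interval -0.01 to 0.56; adjusted p = 0.17 with all libraries, edgeR). It was 0.15 with GC offsets and 0.03 with GC and length offsets. The antisense gene E230016M11Rik overlaps it from 67036599 to 67037406 and stood at 0.221 to 0.322 CPM with mitochondria and 0.384 to 0.840 CPM with vehicle; reads of the overlap cannot be told apart without strand.

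Gadd45b (ENSMUSG00000015312, chromosome 10, 80930073 to 80932204) had 86.1, 74.0 and 74.9 CPM with mitochondria, against 68.1, 62.4 and 56.4 CPM with vehicle. No vehicle library reached the lowest mitochondria library. The log2 fold change of 0.33 ± 0.11 (SE; 95% interval 0.08 to 0.58) missed the threshold (adjusted p = 0.076, edgeR) and passed in DESeq2 (adjusted p = 0.038). It was the only call made for a higher member in any alternative tried, and it was 0.23 with GC offsets (adjusted p = 0.097, edgeR) and 0.13 with GC and length offsets. The third family member, Gadd45g, averaged 34.4 ± 0.726 CPM with mitochondria and 33.5 ± 0.739 CPM with vehicle (SD, n = 3 each; log2 0.04, 95% interval -0.18 to 0.25, adjusted p = 0.83, edgeR), with the sign negative under GC offsets (-0.11).

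Lmnb1 (ENSMUSG00000024590, chromosome 18, 56707813 to 56753424) encodes lamin B1 of the nuclear lamina, whose loss is a widely used sign of senescence and whose transcript is also higher in dividing cells. It had 5.97, 6.78 and 5.73 CPM with mitochondria, against 8.09, 13 and 10.2 CPM with vehicle. All mitochondria libraries lay below all vehicle libraries, and vehicle replicate 2 was the highest. It fell by 0.76 ± 0.20 on the log2 scale (SE; 95% interval -1.21 to -0.31; adjusted p = 0.036, edgeR). The depth was low, about 91 to 105 fragments per library with mitochondria and 132 to 219 with vehicle.

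The Lmnb1 estimate was -0.78 with GC offsets (adjusted p = 0.019, edgeR) and lay between -0.92 and -0.57 under every alternative. The call held without vehicle replicate 1 (adjusted p = 0.021) and was lost without any other single library (adjusted p = 0.051 to 0.15, edgeR). The other lamins did not pass: Lmna, encoding lamins A and C, averaged 529 ± 74.4 CPM with mitochondria and 532 ± 5.75 CPM with vehicle, and Lmnb2, encoding lamin B2, 18.4 ± 4.77 CPM with mitochondria and 19.2 ± 1.33 CPM with vehicle (SD, n = 3 each; adjusted p = 0.96 and 0.87, edgeR), with the sign of both estimates positive under upper-quartile scaling. Of 6 relatives of the 9 genes tested (Gadd45g, Gadd45gip1, Ccng2, Ccni, Lmna and Lmnb2) none passed in edgeR, DESeq2 or limma-voom, with 1 higher at an unadjusted p under 0.05 and 1 higher with GC offsets. Lbr, the lamin B receptor of the inner nuclear membrane, fell by 0.43 ± 0.11 on the log2 scale (SE; adjusted p = 0.030, edgeR).

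Many markers of dividing cells fell with Lmnb1. Of 21 proliferation genes, 13 fell and none rose (61.9% called, against 14.8% of all genes tested). Their median log2 fold change was -0.60, against 0.003 for all genes tested. Their summed level was 297 to 359 CPM with mitochondria and 456 to 519 CPM with vehicle. None was higher in DESeq2, in limma-voom or at an unadjusted p under 0.05. Mki67, which encodes the Ki-67 protein of cycling cells, averaged 8.11 ± 2.71 CPM with mitochondria and 33.2 ± 4.0 CPM with vehicle (SD, n = 3 each). Also among the 13 that fell were Cenpf by 2.85 on the log2 scale, Ccnb1 by 1.1, Ccnb2 by 1.02, Cdc20 by 0.76 and the transcription factor Foxm1 by 0.73 (adjusted p = 0.0042, 0.0093, 0.019, 0.017 and 0.019, edgeR). Cenpf rested on about 11 to 18 fragments per library with mitochondria and 67 to 146 with vehicle. The 8 that did not pass included Plk1, Aurkb, Bub1 and Birc5 (adjusted p = 0.11, 0.49, 0.42 and 0.15, edgeR), which were named after their values were seen. Also named that way, Pcna was the 1 of 21 with an estimate above 0 (log2 0.10, adjusted p = 0.60, edgeR). Mcm2 lay close to its vehicle level. The number of proliferation genes that fell was 2 without vehicle replicate 2 or without vehicle replicate 3, and with GC offsets 14 fell and 1 rose. The part of dividing cells in the Lmnb1 result was not tested.

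Measured as FPKM, the authors' fragments per kilobase of transcript at a common depth, the 9 genes spanned a wide range that kept most of its order. Cdkn1a was the most abundant, at 306 ± 30.7 FPKM with mitochondria and 273 ± 9.64 FPKM with vehicle, and Ccng1 came next, at 90.4 ± 31.6 FPKM with mitochondria and 196 ± 15.1 FPKM with vehicle. Mdm2, Cdkn2b and Gadd45b formed a middle group: with mitochondria they averaged 40.3, 45.6 and 43.7 FPKM with overlapping values, and with vehicle 52.7, 42.1 and 36.5 FPKM, where Mdm2 lay above both others in every library and Cdkn2b and Gadd45b overlapped. Below them, without overlap between neighbours, came Trp53 (22.7 ± 2.34 FPKM with mitochondria and 22.8 ± 1.0 FPKM with vehicle), Gadd45a (16 ± 2.22 FPKM with mitochondria and 13.8 ± 0.764 FPKM with vehicle), Cdkn2a (8.5 ± 0.661 FPKM with mitochondria and 7.13 ± 0.327 FPKM with vehicle) and Lmnb1 (1.84 ± 0.156 FPKM with mitochondria and 3.28 ± 0.814 FPKM with vehicle; SD, n = 3 each).

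**Figure D4:**
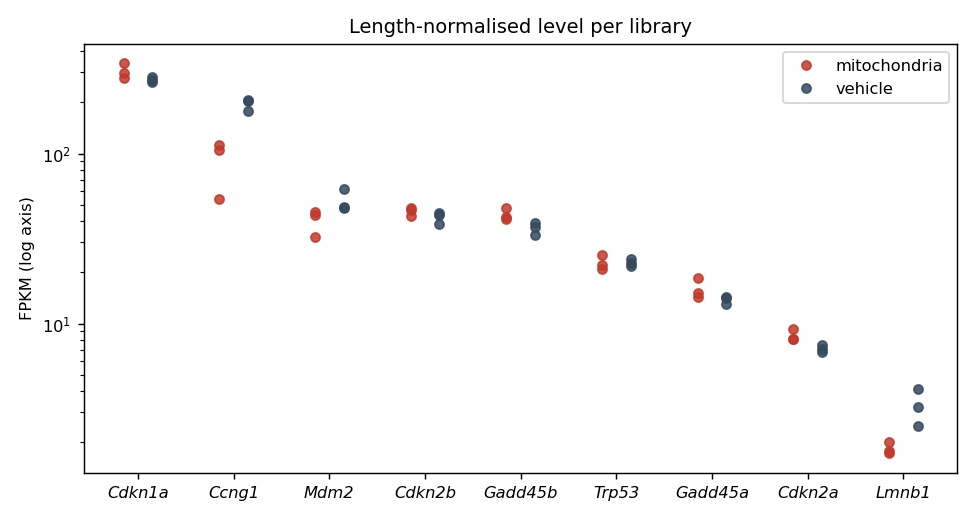
FPKM of each gene in every library on a log axis, mitochondria libraries left of vehicle libraries for each gene, with genes in order of their vehicle mean. Cdkn1a (265 to 339 FPKM over all 6 libraries) is the most abundant and Lmnb1 (1.72 to 4.13 FPKM) the least in both groups.

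Other genes switched on by p53 were lower or did not pass with all libraries. Of 27 further p53 targets, 5 fell and none rose, which is 18.5% against 14.8% of all genes tested, with a median log2 fold change of -0.10 against 0.003. None rose in DESeq2 or limma-voom, and 1 was higher at an unadjusted p under 0.05. Those that fell were Eda2r, a receptor of the TNF family (by 0.90 ± 0.16 on the log2 scale, SE), the death receptor Fas (by 0.73 ± 0.14), the RNA-binding protein Zmat3 (by 0.37 ± 0.10), the stress protein gene Trp53inp1 (by 1.05 ± 0.29) and the translesion DNA polymerase Polk (by 0.98 ± 0.28; edgeR adjusted p = 0.012, 0.015, 0.039, 0.043 and 0.047). The pro-apoptotic genes Bax (240 ± 36.9 CPM with mitochondria and 213 ± 3.36 CPM with vehicle) and Bbc3, encoding PUMA (20 ± 2.91 CPM with mitochondria and 21.4 ± 0.531 CPM with vehicle; SD, n = 3 each), did not pass (adjusted p = 0.33 and 0.67, edgeR), and the Bax estimate was 0.18, but 0.04 without mitochondria replicate 1. With GC offsets 6 targets fell and none rose, and Fas did not pass (adjusted p = 0.16, edgeR). Trp53inp1 is AT-rich (41.1% GC), and its estimate was -0.50 with GC offsets (adjusted p = 0.041), -0.40 with GC and length offsets (adjusted p = 0.064) and -0.73 without mitochondria replicate 1 (adjusted p = 0.0029, edgeR). Polk was -0.64 with GC offsets (adjusted p = 0.030) and -0.68 without that library (adjusted p = 0.0048, edgeR), and Eda2r was -0.54 with GC offsets (adjusted p = 0.0045, edgeR). No target passed when vehicle replicate 2 or 3 was left out, and 2 fell without vehicle replicate 1 or without mitochondria replicate 3. Without mitochondria replicate 2, 6 targets fell and 1 rose.

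Upstream of p53, 6 of the 15 regulators and relatives that passed the filter on counts, of 16 listed, fell and none rose. That is 40.0% called, against 14.8% of all genes tested, with a median log2 fold change of -0.31. None was higher in DESeq2, in limma-voom or at an unadjusted p under 0.05. Those that fell were the DNA damage kinases Atm and Atr (by 1.52 ± 0.30 and 1.33 ± 0.35 on the log2 scale, SE) and Chek1 (by 1.3 ± 0.36), the kinase Hipk2 (by 0.67 ± 0.18), the acetyltransferase Ep300 (by 0.41 ± 0.10) and the p53 relative Trp63 (by 2.27 ± 0.48), with edgeR adjusted p of 0.016, 0.037, 0.043, 0.041, 0.034 and 0.019. Trp63 was barely detected, at 0.573 ± 0.121 CPM with mitochondria and 2.77 ± 1.45 CPM with vehicle (SD, n = 3 each). Chek1 rested on about 16 to 32 fragments per library with mitochondria and 46 to 80 with vehicle. Atr is very AT-rich (37.3% GC). With GC offsets 3 regulators fell and 2 rose, and Atr, Chek1 and Ep300 did not pass (adjusted p = 0.13, 0.064 and 0.13, edgeR). Without mitochondria replicate 1 the estimates were -1.2 for Atm (adjusted p = 0.0019), -0.99 for Atr (adjusted p = 0.012) and -1.09 for Chek1, which was no longer called (adjusted p = 0.083, edgeR). None passed when vehicle replicate 2 or 3 was left out, and 2 fell without vehicle replicate 1 or without mitochondria replicate 3.

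Among 18 other CDK inhibitors, G1 cyclins and kinases and their retinoblastoma and E2F partners, 1 rose and 5 fell (median log2 fold change -0.20). That is 33.3% called, against 14.8% of all genes tested. Cdkn2d, which encodes the INK4 inhibitor p19Ink4d, averaged 23.5 ± 2.34 CPM with mitochondria and 16.3 ± 1.61 CPM with vehicle (SD, n = 3 each; log2 0.53 ± 0.13, SE; adjusted p = 0.030, edgeR). Cdkn1c, which encodes p57, averaged 19.6 ± 2.52 CPM with mitochondria and 51.0 ± 13.4 CPM with vehicle and fell by 1.38 ± 0.20 on the log2 scale (adjusted p = 0.0065, edgeR), a call kept without any 1 of the 6 libraries and with GC offsets (-1.52). The retinoblastoma gene Rb1 (by 1.0), the D cyclins Ccnd2 (by 0.66) and Ccnd1 (by 0.39) and their kinase Cdk6 (by 0.65) also fell (adjusted p = 0.019, 0.022, 0.039 and 0.037, edgeR). Rb1 has 41.0% GC, and its estimate was -0.40 with GC offsets (adjusted p = 0.032) and -0.77 without mitochondria replicate 1 (adjusted p = 0.0035, edgeR). Cdkn1b, encoding p27, stood at 78.2 ± 5.07 CPM with mitochondria and 80.5 ± 5.21 CPM with vehicle (SD, n = 3 each; log2 -0.04, adjusted p = 0.80, edgeR), and was higher with GC offsets (0.33, adjusted p = 0.047). Cdkn2c, encoding p18Ink4c, did not pass (log2 -0.19, adjusted p = 0.29, edgeR). Without vehicle replicate 2 or vehicle replicate 3, 1 of the 18 fell and none rose; without mitochondria replicate 3, 2 fell and none rose.

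Genes of nucleus and cell surface that are tied to senescence were mixed: of 10, 1 rose and 3 fell (median -0.22). That is 40.0% called, against 14.8% of all genes tested. Glb1, the lysosomal beta-galactosidase behind the common staining test for senescence, averaged 96.9 ± 2.91 CPM with mitochondria and 76.7 ± 3.35 CPM with vehicle (SD, n = 3 each; adjusted p = 0.033, edgeR). Beside Lbr, the surface peptidase Dpp4 (by 1.88 ± 0.28 on the log2 scale, SE) and the Polycomb protein Bmi1, a known repressor of the Cdkn2a locus (by 1.01 ± 0.25), fell (adjusted p = 0.0067 and 0.029, edgeR), and Bmi1 was -0.70 with GC offsets (adjusted p = 0.015) and -0.75 without mitochondria replicate 1 (adjusted p = 0.0062). Dpp4 rested on about 12 to 23 fragments per library with mitochondria and 63 to 70 with vehicle. With 1 library left out, Dpp4 passed in 6 of 6 fits, Bmi1 in 2, and Glb1 and Lbr in 1 each. Without mitochondria replicate 3, 1 gene of this list fell and none rose, and without vehicle replicate 1, 1 fell and 1 rose. Of 20 secreted factors often linked to senescence, 3 rose and 1 fell (median 0.16). Among them the stromelysin Mmp3 rose by 0.73 ± 0.09 on the log2 scale and the angiogenic factor Vegfa by 0.61 ± 0.13, and the growth factor Hgf fell by 1.33 ± 0.30 (SE; adjusted p = 0.0047, 0.019 and 0.023, edgeR). Hgf was -0.76 with GC offsets (adjusted p = 0.044, edgeR), and rested on about 19 to 36 fragments per library with mitochondria and 58 to 89 with vehicle. With GC offsets 8 of these factors rose and 3 fell, and without vehicle replicate 1, 7 rose and 1 fell. The 16 secreted factors that did not pass with all libraries and no offsets included Il6, Cxcl1, Ccl2 and Mmp13. Their adjusted p was 0.44, 0.29, 0.61 and 0.67 (edgeR), and these names were chosen after their values were seen. Without vehicle replicate 2 or vehicle replicate 3, Dpp4 was the 1 gene of the nuclear and surface list that passed, and 1 secreted factor rose and none fell.

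Kinases and partners of the Gadd45 proteins gave 1 rise and 1 fall among 12 (median 0.01). That is 16.7% called, near the 14.8% of all genes tested. The p38-activating kinase Map2k6 averaged 6.05 ± 1.82 CPM with mitochondria and 2.14 ± 0.525 CPM with vehicle (SD, n = 3 each; adjusted p = 0.015, edgeR), and the DNA repair gene Brca1 2.03 ± 0.810 CPM with mitochondria and 5.23 ± 0.596 CPM with vehicle (adjusted p = 0.020). With GC offsets 4 rose and 1 fell, and without vehicle replicate 2 or vehicle replicate 3 none passed. Map2k6 rested on about 69 to 129 fragments per library with mitochondria and 26 to 42 with vehicle. Brca1 rested on about 23 to 46 fragments per library with mitochondria and 78 to 99 with vehicle.

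**Figure D5:**
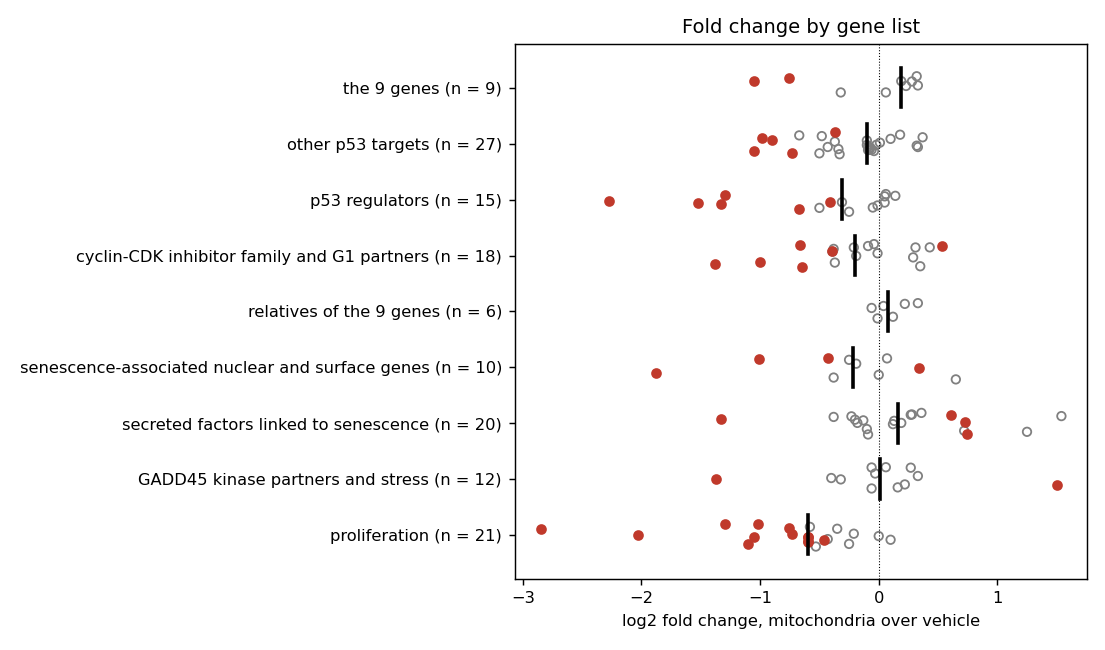
Log2 fold change, mitochondria over vehicle, of every tested gene in the 9 genes and the 8 other lists (each circle 1 gene, filled where the edgeR adjusted p was under 0.05, black bars the list medians). Filled circles lie mostly below 0 among p53 targets, p53 regulators and proliferation genes, and the secreted factors hold 3 filled circles above 0 and 1 below.

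Some genes tracked the members closely over the 6 libraries. By Pearson's r of log2 CPM, the nearest to Cdkn1a were Dctn3 (0.9983), Rnf187 (0.9975) and Agap3 (0.9965), and the nearest to Cdkn2a were Necap2 (0.9990), Ppp4c (0.9970) and Agtrap (0.9969). The nearest to Gadd45a were Pip5k1a (0.9975), Mrps9 (0.9843) and Ankrd55 (0.9817), and the nearest to Lmnb1 were Nuak2 (0.9910), Gm26782 (0.9908) and Tmeff2 (0.9906). These are the highest of 17289 values each over 6 points that share group and library, and are given as a description only.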

How the data were processed

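Poly(A) RNA libraries were sequenced as read pairs, per the labels' protocols. Tools named in the submitters' processing notes are HISAT2 2.0, StringTie 1.3.0 and Bowtie 0.12.2, with build mm8 and no order of use. The authors deposited FPKM, which they normalised for length and depth. They also deposited estimated counts (expected counts) per gene, raw and in whole numbers. Gene positions were compared with GENCODE M21 on GRCm38: 25914 of 28732 shared genes (90.2%) had the same start and end, so positions are 1-based GRCm38; those of Gadd45a, which differ from GENCODE, are as deposited. Every column belonged to a sample used.

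Counts were rounded and fitted with edgeR 4.0.16 under R 4.3.3 (filterByExpr with minimum count 10, TMM scaling, quasi-likelihood test, group as the only term, two-sided), with Benjamini-Hochberg adjustment over 17290 genes and a threshold of 0.05. CPM are deposited counts scaled to library size with TMM factors. The SE was derived from the test as |log2 fold change|/sqrt(F). GC offsets subtract a lowess trend (span 0.3) of each library on GC content, known for 99.8% of genes. Alternatives used DESeq2 1.42.0 and limma 3.58.1. Scripts were tested on simulated counts.

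The 9 genes, the gene lists and the rule for naming genes were chosen with earlier results of these data known. Named are the 9, up to 6 genes past the threshold per list, a fixed set of relatives, and for 4 of the 9 the 3 genes of highest correlation; a gene that the rule names is not reported here. Promoters are from RefSeq (GRCm38.p6), and 10 windows of 8 of the 9 genes were used here. Windows on chromosome 18, which holds Lmnb1, were left out when the windows of the 9 genes were looked up.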

Additional observations from a re-analysis of the deposited data

How the results depend on the processing

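With all 6 libraries 2562 genes passed (42.9% of them higher), 2 of the 9 genes and 40 of the 129 other listed genes. Leaving out 1 library gave 442 to 2780, 0 to 2 and 5 to 42; the 9 genes gave 2 calls without vehicle replicate 1, 1 without mitochondria replicate 1 (Ccng1) or 2 (Ccng1), and 0 without any other. GC offsets without mitochondria replicate 1 gave 1. With no filter on counts 864, 0 and 10 passed, in limma on log2(FPKM + 1) with no filter 39, 0 and 0, and in DESeq2 3862 genes. The higher share was 61.5% with GC offsets, 63.2% with GC and length offsets and 32.0% with library size only. The cause was not tested.

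Signs turned only for genes that had not passed. Trp53 was -0.0036 with library size only, -0.01 in the 3 limma fits to FPKM, with GC offsets and with GC offsets and the replicate block, -0.03 with GC and length offsets, -0.05 with GC offsets without mitochondria replicate 1, and -0.02 to 0.12 with 1 library left out. Cdkn1b was 0.02 with upper-quartile scaling, 0.33 with GC offsets with or without the block, 0.41 with GC and length offsets, 0.23 with GC offsets without mitochondria replicate 1, and -0.08 to 0.01 with 1 library left out. Gadd45g was -0.03 with library size only and in the limma fits to FPKM, -0.11 with GC offsets with or without the block, -0.20 with GC and length offsets and -0.02 with GC offsets without mitochondria replicate 1. Bax was -0.07 with GC and length offsets. Lmna and Lmnb2 were 0.05 and 0.01 with upper-quartile scaling. With 1 library left out, Bbc3 was -0.19 to 0.01, Lmna -0.13 to 0.06 and Lmnb2 -0.29 to 0.06. Bbc3 fell with GC and length offsets (-0.42, adjusted p = 0.023, edgeR).

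Replicate numbers are not stated to pair libraries. Deviations of same-number libraries correlated at 0.0371, 0.00907 and -0.0152, so no block was used. With the replicate block, 2284 genes, 2 of the 9 and 34 of the 129 passed. GC and length offsets, and GC offsets without mitochondria replicate 1, were chosen after seeing the data. Limits: 3 libraries per group, low depth for Lmnb1, and a GC trend that cannot be told apart from the groups. Depth was lower still for Cenpf, Dpp4, Chek1, Hgf, Brca1 and Trp63, whose large falls rest on few fragments with mitochondria. The rise of Map2k6 rests on few fragments with vehicle.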

Other observations

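The wider p53 pathway, as the KEGG column of the deposited table defines it, was mostly lower with mitochondria where genes passed. Of 67 genes tested out of 70, 7 of them among the 9 genes, 3 rose, 19 fell and 45 did not pass (edgeR, adjusted p under 0.05; 32.8% called, against 14.8% of all genes tested), with a median log2 fold change of -0.14. Many of the 19 were already counted above as targets or regulators (Atm, Atr, Chek1, Fas, Zmat3) or as G1 and proliferation genes. The latter include Ccnd1, Ccnd2, Cdk6, Ccnb1, Ccnb2, Cdk1 and Rrm2, so this list is not independent of the others. Among those that rose were Sfn, encoding 14-3-3 sigma (log2 fold change 1.03 ± 0.23, SE; adjusted p = 0.022, edgeR), and the tetraspanin Cd82 (0.40 ± 0.11, adjusted p = 0.041). The growth factor Igf1 (-2.98 ± 0.32, adjusted p = 0.0035) and the sestrin Sesn3 (-1.04 ± 0.18, adjusted p = 0.0096) were among those that fell (edgeR); these names were chosen after their values were seen. With GC offsets 7 rose and 17 fell. Without vehicle replicate 2 none rose and 2 fell, without vehicle replicate 3 none rose and 1 fell, and without mitochondria replicate 3, 1 rose and 9 fell.

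The ratio of Cdkn1a to Ccng1, which no library scaling can move, was 1 of 4 computed, and the pair was picked after its opposite signs were seen, so the test adds nothing independent. In FPKM it was 6.27, 2.49 and 2.85 with mitochondria, against 1.58, 1.28 and 1.33 with vehicle. The groups did not overlap (exact two-sided permutation p = 0.10, the smallest that 3 against 3 libraries allow). The ratio of Cdkn1a to Mdm2 was 10.5, 6.15 and 6.91 with mitochondria, against 4.58, 5.49 and 5.67 with vehicle (exact p = 0.10). The ratio of Gadd45b to Gadd45a was 3.19, 2.86 and 2.28 with mitochondria, against 2.74, 2.6 and 2.56 with vehicle (exact p = 0.70), and that of Cdkn2b to Cdkn2a had an exact p of 0.20. None of the 4 can pass 0.05 in this design. Transcripts of different GC content enter these ratios, and the part of GC content in them was not tested.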
